A study of Mus musculus with 4 samples.

Results

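The cells described here are hematopoietic stem cells sorted through the long-term (LT-HSC) gate from mouse bone marrow. A barcode was kept as a cell with 1000 or more genes, with 2000 or more unique molecular identifiers (UMIs, which count each captured RNA molecule once) and with no more than 10% of them from the mitochondrial genome. This gave 1239 LT-HSC cells among the 5579 cells of the whole series, of which 22 came from mouse 1 and 1217 from mouse 2. The other 4340 cells came from the short-term (ST-HSC) gate of the same 2 animals, 2633 from mouse 1 and 1707 from mouse 2. All 4 libraries came from male mice aged 14 weeks of the cross Tie2-bG-Micm x RosaYFP, in which the Tie2 promoter drives an inducible Cre and recombined cells carry YFP, so both gates share these alleles. Both gates took lineage-negative cells with Kit and Sca1 and without CD48. LT-HSC were CD150+ and ST-HSC were CD150-.

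LT-HSC renew themselves and can rebuild all blood lineages for the life of a recipient, whereas ST-HSC do so for a limited time. Most LT-HSC rest outside the cell cycle, and dividing stem cells make more ribosomes, chromatin proteins and nucleotide enzymes. The gate is a set of surface proteins, so cells inside it can still differ in cycle state, in signalling and in the lineage genes they transcribe. The values below describe which transcripts fill these cells, which vary from cell to cell by more than counting error, and which vary together.

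The LT-HSC libraries differed widely in barcodes and depth and are given separately. In mouse 1 LT-HSC, 22 of 39553 barcodes passed, with a median of 4494.5 UMIs and 1747.5 genes per kept cell, while the median over all its barcodes was 285 UMIs and the kept cells held 0.849% of its UMIs. The sources used here do not say how its barcodes were chosen, so what these 22 cells stand for is uncertain, and with them the n of 2. In mouse 2 LT-HSC, 1217 of 1288 barcodes passed, with a median of 10367 UMIs and 3302 genes. Summed over kept cells, these held 115305 and 13249904 UMIs, against 27870823 and 13566531 UMIs for mouse 1 and mouse 2 ST-HSC. Levels are given as CPM, the UMIs of a gene scaled to the library total, and a count of 3 stood for 26.02 CPM in mouse 1 LT-HSC and for 0.226 CPM in mouse 2 LT-HSC. The kept cells nearest to the gene limit had 1015 genes in mouse 1 LT-HSC and 1037 in mouse 2 LT-HSC, and the nearest barcodes left out had 992 and 990 genes. The LT-HSC libraries shared 0 barcodes with each other, and mouse 2 LT-HSC shared 1 with mouse 2 ST-HSC. Intervals and floors cover counting error only.

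The labels were set beside 5 genes known from LT-HSC, which were chosen with earlier results of these data known, so their counts are a description and do not support the labels. Slamf1, which encodes the CD150 protein that defines the gate, lay at 34.7 and 21.9 CPM in mouse 1 and mouse 2 LT-HSC, against 0.825 and 1.40 CPM in ST-HSC. Meg3, an imprinted noncoding RNA, lay at 121 and 138 CPM in LT-HSC and at 18.3 CPM in each ST-HSC library. The sulfotransferase gene Sult1a1 lay at 43.4 and 52.8 CPM in LT-HSC, against 3.70 and 3.54 CPM in ST-HSC. For these 3 genes each LT-HSC library stood above each ST-HSC library, although the kept cells of mouse 1 LT-HSC held only 4, 14 and 5 UMIs of them.

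Mecom, a transcription factor gene required by stem cells, lay at 165 and 128 CPM in LT-HSC, against 86.3 and 93.1 CPM in ST-HSC. Hlf, another stem cell transcription factor gene, lay at 702 and 470 CPM in LT-HSC, against 733 and 663 CPM in ST-HSC, so the gates overlapped and Hlf did not mark the LT-HSC gate. In the edgeR quasi-likelihood test over the library sums (n = 2 per gate), the log2 fold change, LT-HSC minus ST-HSC, was 4.43 (SE 0.33) for Slamf1, 2.88 (SE 0.19) for Meg3, 3.84 (SE 0.23) for Sult1a1 and 0.55 (SE 0.19) for Mecom. Each SE here is the size of the log2 fold change over the square root of the F statistic of the test. The edgeR adjusted p was 1.78e-32 for Slamf1, 3.74e-40 for Meg3, 1.95e-47 for Sult1a1 and 0.0453 for Mecom. By the alternative test DESeq2, adjusted p was 3.26e-05 for Slamf1, 8.87e-10 for Meg3 and 6.68e-07 for Sult1a1, and Mecom was not called. The DESeq2 SE were larger, at 0.82, 0.39, 0.61 and 0.34 for Slamf1, Meg3, Sult1a1 and Mecom. By edgeR, 4 of the 5 markers were called higher in LT-HSC and 0 lower. Of the 12656 genes tested, 3.6% were called higher, 3.13% lower and 6.72% in either direction. The direction of Slamf1 is the one the sort selected. The call of Mecom was lost under several settings: its edgeR adjusted p was 0.0786 with mouse number as a block (log2 fold change 0.53) and 0.103 without mouse 1 LT-HSC (log2 fold change 0.51). For Hlf the log2 fold change was -0.38 (SE 0.20) with an edgeR adjusted p of 0.399. Without mouse 2 LT-HSC, the log2 fold change was 4.91 for Slamf1, 2.62 for Meg3 and 3.47 for Sult1a1, with edgeR adjusted p of 0.408, 0.149 and 0.407. LT-HSC is then the 22 cells of 1 library, which is assumed to vary like the ST-HSC libraries. In the mm10 assembly with the GENCODE vM21 annotation, Slamf1 lies at chr1:171767127-171801184, Meg3 at chr12:109541001-109571726, Sult1a1 at chr7:126672865-126676432, Mecom at chr3:29951296-30548008 and Hlf at chr11:90336536-90390895.

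**Figure D1:**
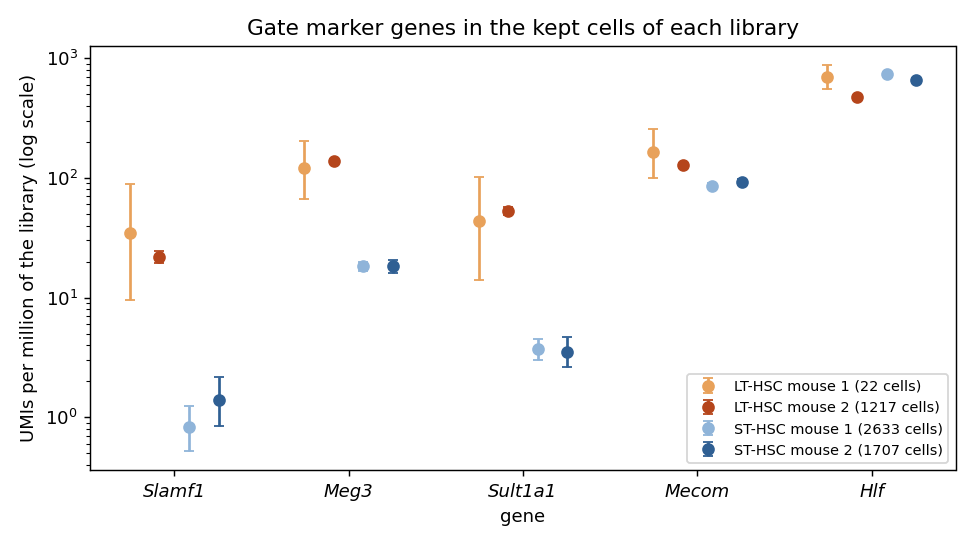
CPM (log scale) of the 5 gate markers in the kept cells of each library. Points are library sums and bars are exact 95% Poisson intervals, which cover counting error only. Slamf1, Meg3 and Sult1a1 are higher in both LT-HSC libraries, and Hlf overlaps between the gates.

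Genes of other blood and marrow cells were rare. Of 10 lists of such cells, 37 of the 1217 LT-HSC cells of mouse 2 held UMIs of 3 or more genes of 1 list. These were 20 cells for megakaryocyte genes, 9 for erythroblast genes, 7 for macrophage genes and 2 for neutrophil genes, 1 of the cells counting in more than 1 list. The summed neutrophil list lay at 26.02 (3 UMIs) and 165 CPM in mouse 1 and mouse 2 LT-HSC, against 473 and 1835 CPM in ST-HSC. At least 3 genes of this list were found in only 6 and 11 cells of mouse 1 and mouse 2 ST-HSC. The part of such cells in these CPM was not tested. The macrophage list lay at 0 and 8.23 CPM in LT-HSC, against 11.1 and 11.7 CPM in ST-HSC. In mouse 2 LT-HSC, UMIs were found for 8 of 8 megakaryocyte genes (118 CPM), 8 of 9 neutrophil genes, 7 of 9 macrophage genes, 7 of 9 erythroblast genes (128 CPM), 6 of 7 endothelial genes (9.06 CPM), 6 of 9 B cell genes (44.5 CPM), 4 of 8 T and NK cell genes (35.9 CPM), 4 of 7 dendritic genes (69.4 CPM), 4 of 7 stromal genes (3.92 CPM) and 3 of 7 mast cell and basophil genes (3.55 CPM). The dendritic list holds the MHC class II gene H2-Eb1, which is described with that class below. Defining genes at 0 were Slc4a1 for erythroblasts, Cdh5 for endothelium, Cd3e and Cd3g for T cells and Pax5 for B cells. The doublet caller Scrublet marked 20 cells (1.64%), which were kept and left out in an alternative. The part of such cells in the results was not tested, apart from that alternative and one without the 37 cells.

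Transcripts of protein synthesis filled much of the LT-HSC transcriptome. Ribosomal protein genes took 36.5% of the UMIs in mouse 1 LT-HSC and 35.1% in mouse 2 LT-HSC, against 34.3% and 33.7% in ST-HSC. Mitochondrially encoded genes took 4.43% and 3.15% in LT-HSC, against 3.41% and 3.22% in ST-HSC. The 100 highest genes took 44.2% of the UMIs in mouse 2 LT-HSC. Nuclear genes for oxidative phosphorylation took 1.73% and 2.08%, against 2.06% and 2.23% in ST-HSC.

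Outside those classes, the nuclear noncoding RNA Malat1 ranked first, at 13807 and 10544 CPM in mouse 1 and mouse 2 LT-HSC, against 11143 and 10116 CPM in ST-HSC. The translation elongation factor gene Eef1a1 followed at 9080 and 8709 CPM in LT-HSC. Actb, the beta actin gene, lay at 4605 and 4510 CPM, and Ptma, which encodes the chromatin-associated protein prothymosin alpha, at 3235 and 3843 CPM. The prolyl isomerase gene Ppia lay at 2610 and 3112 CPM. Among them were the MHC class I heavy chain gene H2-K1, at 1778 and 2222 CPM, and its light chain gene B2m, at 1613 and 1943 CPM. Ifitm1, an interferon-inducible membrane protein gene that is strongly transcribed in stem cells, was the last of the 20 most abundant genes outside those classes, at 1232 and 1677 CPM. Together these 20 genes took 6.65% of the UMIs in mouse 1 LT-HSC and 6.72% in mouse 2 LT-HSC, against 6.71% and 6.82% in ST-HSC.

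To set cells of unequal depth side by side, 5000 UMIs were drawn at random from each cell, which left 1146 LT-HSC cells of mouse 2 and 9 of mouse 1. The spread and correlations below therefore rest on 1 library, their points share that library, and no test between gates was possible for them. Values of the ST-HSC libraries, with 2564 and 1590 cells after the same draw, stand beside them as a description. The Fano factor, the variance over cells divided by the mean, is 1 where only counting error acts. Of 3688 genes with a mean of at least 0.2 UMIs, the median Fano factor was 1.03 and 79.1% lay below 1.1. A factor of 1.5 or more was reached by 136 genes (3.69%), against 128 (3.40%) and 129 (3.51%) of the genes measured in mouse 1 and mouse 2 ST-HSC. That number depended on the depth drawn, with 32 genes at 2000 UMIs per cell and 240 at 8000, and at a low mean the Fano factor lies near 1 whatever the variation between cells.

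**Figure D2:**
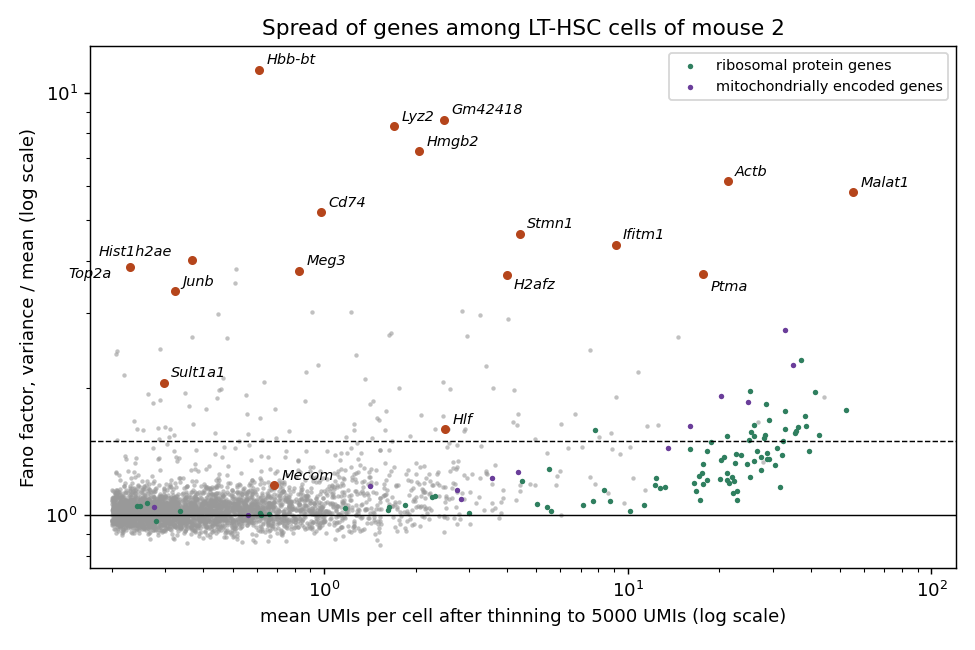
Fano factor against mean UMIs per cell (both log scales) for 3688 genes over 1146 LT-HSC cells of mouse 2, each thinned to 5000 UMIs. The solid line marks 1 and the dashed line 1.5, and named genes are in red. Mecom lies near the solid line, Meg3 at 3.79 and Hmgb2 at 7.27.

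The gate markers ranged widely in how unevenly the cells carried them. Meg3 had a Fano factor of 3.79 in mouse 2 LT-HSC, against 3.71 and 2.35 in ST-HSC, where its thinned mean was 0.118 and 0.0899 UMIs. Its thinned counts were 0 in 72.7% of the LT-HSC cells, where counting error at its mean of 0.829 UMIs would leave 43.6% at 0. The cells that had Meg3 carried 3.04 UMIs on average, and the highest had 13. Sult1a1 had a Fano factor of 2.06 and Hlf of 1.60. Mecom had 1.18, and its thinned counts were 0 in 52.3% of cells, close to the 50.4% that counting error alone would leave.

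Slamf1 itself was too sparse for a spread. It had a UMI in 3 of 22 LT-HSC cells of mouse 1 (13.6%, exact Clopper-Pearson 95% interval 2.91 to 34.9%) and in 18.2% of those of mouse 2, against 0.836% and 1.11% of ST-HSC cells, which were gated against its protein. At 5000 UMIs per cell the shares were 10.6% in mouse 2 LT-HSC, against 0.468% and 0.881% in ST-HSC. Median depths before thinning were 10367 UMIs in mouse 2 LT-HSC, against 9881 and 7504 in ST-HSC.

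By list, a Fano factor of 1.5 or more was reached by 4 of 5 measurable G2 and M phase genes, 6 of 10 S phase genes, 4 of 4 histone genes, 4 of 6 MHC class II genes, 6 of 15 interferon response genes, 5 of 7 immediate early genes, 8 of 17 HSC-enriched genes and 22 of 81 ribosomal protein genes. It was reached by 0 of 78 nuclear genes for oxidative phosphorylation and 0 of 10 glycolysis genes, and over all genes by 3.69%. A Fano factor depends on the mean count, so these counts are a description. Among the 20 genes of highest Fano factor were Hmgb2, a chromatin protein, at a Fano factor of 7.27, the tubulin regulator Stmn1 at 4.63, the replication histone Hist1h2ae at 4.02, the DNA topoisomerase Top2a at 3.86 and the histone variant H2afz at 3.70. Cd74, the invariant chain of MHC class II, had 5.21, and Iigp1, an interferon-inducible GTPase, had 3.55. The early response genes Junb, Jun and Nfkbia, an NF-kappaB inhibitor, had 3.39, 3.03 and 3.02. Without the 12 highest cells of each gene these were 1.30 for Junb, 2.53 for Jun and 1.60 for Nfkbia. Histone, globin and lysozyme genes have near-identical copies, so the counts of single members are uncertain.

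A few high values rested on single cells. Lyz2, the lysozyme gene of monocytes and neutrophils, had a Fano factor of 8.32, but 1 cell held 121 of its thinned UMIs while the next highest held 7. Without that cell the factor was 1.08. The same cell had the most Actb (160 thinned UMIs) and the most Tmsb4x (97), and among its 25186 UMIs it had 0 of Hlf, 0 of Mecom and 0 of Meg3. Actb kept a factor of 5.41 without it. The beta globin gene Hbb-bt had the highest factor, 11.3, or 8.43 without its highest cell, and was at 0 in 84.1% of cells. Hbb-bs, the other adult beta globin gene, lay at 6.26 CPM in mouse 2 LT-HSC, against 118 CPM for Hbb-bt.

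Gene pairs were compared by the Pearson correlation of ln(1 + thinned UMIs) over the 1146 LT-HSC cells of mouse 2. Over all pairs of the 3688 genes the median r was 0.0006. An r of 0.2 or more was found for 1955 pairs (0.0288%) and of -0.2 or less for 919 pairs (0.0135%). These pairs involved 318 of the 3688 genes. Of the 1955 positive pairs, 747 (38.2%) also passed in mouse 1 ST-HSC, which is 71.6% of the pairs that passed there, and 918 (47.0%) passed in mouse 2 ST-HSC, which is 32.4% of those that passed there. Of the 919 negative pairs, 70 (7.62%) passed in mouse 1 ST-HSC and 58 (6.31%) in mouse 2 ST-HSC. Only 78 and 155 negative pairs passed in mouse 1 and mouse 2 ST-HSC, and the shared ones were 89.7% and 37.4% of these. Across both ST-HSC libraries, 0 pairs passed with the opposite sign. The libraries differ in cell number and depth, and the part of these in the counts was not tested.

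**Figure D3:**
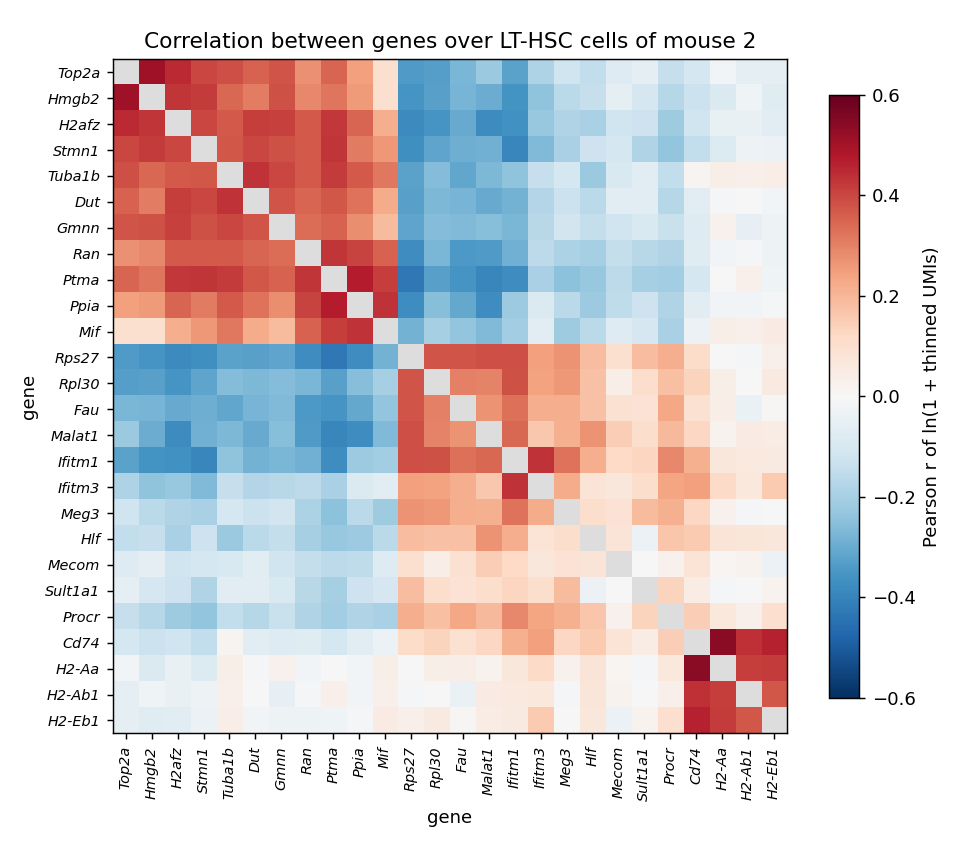
Pearson r of ln(1 + thinned UMIs) between named genes over 1146 LT-HSC cells of mouse 2; red is positive, blue negative and the diagonal grey. Between the cycle and growth genes (Top2a to Mif) and the genes from Rps27 to Procr all r are negative, from -0.43 to -0.06; within the second set many lie near 0, such as Mecom with Sult1a1. The MHC class II genes form a positive block.

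Genes of growth and the cell cycle and ribosomal protein genes had the most partners. Ptma had 170 genes at an r of 0.2 or more or -0.2 or less. Ppia had 125, H2afz 124, the ribosomal protein gene Rps27 120 and Ran, the GTPase of nuclear transport, 118. Ptma and Ppia were correlated at r = 0.47 in mouse 2 LT-HSC, against 0.41 and 0.47 in ST-HSC. Mif, a cytokine gene, was correlated with Ppia at 0.43 and with Ptma at 0.41. Dut, which keeps uracil out of DNA, and the tubulin gene Tuba1b were correlated at 0.43.

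Genes of chromatin and chromosomes were correlated with each other. Hmgb2 and Top2a were correlated at r = 0.51 in mouse 2 LT-HSC, against 0.42 and 0.39 in ST-HSC, and H2afz and Top2a at 0.45, against 0.34 and 0.30. Hmgb2 and Top2a belong to a list of 31 G2 and M phase genes. Without the 115 cells that had 5 or more genes of that list, their r was 0.09 and that of H2afz and Top2a was 0.13, but this choice of cells uses the genes correlated, so the fall is no independent result. Ptma and Ppia, which are not on the list, had an r of 0.37 without these cells. Such cells made up 10.0% of the thinned cells in mouse 2 LT-HSC, against 11.7% and 8.68% in ST-HSC, and unthinned 30.3%, against 31.9% and 19.3%. In mouse 1 LT-HSC they were 0 of 9 thinned cells, which allows a share of up to 33.3%, and 5 of 22 unthinned cells. In mouse 2 LT-HSC their median was 17399 UMIs, against 10293 in the other cells.

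The promoters of Top2a and Hmgb2 are shown because both hold repeats of the CCAAT box, the sequence bound by the factor NF-Y. RefSeq gives them in the build GRCm38.p6, from 250 bases before to 50 after the annotated start. Top2a is at chr11:99024140-99024439 on the minus strand and Hmgb2 at chr8:57511593-57511892 on the plus strand. Capitals mark CCAAT or, for the other strand, ATTGG.
Top2a: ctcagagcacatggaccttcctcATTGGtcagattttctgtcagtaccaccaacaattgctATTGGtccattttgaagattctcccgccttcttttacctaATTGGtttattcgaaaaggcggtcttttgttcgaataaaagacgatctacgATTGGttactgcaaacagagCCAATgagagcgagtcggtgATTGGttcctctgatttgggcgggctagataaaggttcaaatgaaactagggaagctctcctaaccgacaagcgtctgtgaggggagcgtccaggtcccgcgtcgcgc
Hmgb2: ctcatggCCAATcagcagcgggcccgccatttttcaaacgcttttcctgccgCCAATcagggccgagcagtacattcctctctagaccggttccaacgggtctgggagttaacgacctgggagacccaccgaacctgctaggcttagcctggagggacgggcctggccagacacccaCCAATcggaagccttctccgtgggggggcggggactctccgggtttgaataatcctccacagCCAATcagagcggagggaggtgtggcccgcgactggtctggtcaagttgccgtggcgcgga
The Top2a window held 6 matches and the Hmgb2 window 4, all upstream of the start. At least 1 match was found in 37.4% of the 32851 promoters of the same length, at least 4 in 1.06% and at least 6 in 0.0791%. Each of these windows also held TTTGAA or TTCAAA, the letters of the cell cycle homology region, which were found in 17.9% of all promoters. Top2a and Hmgb2 were picked for their matches, so these shares describe the 2 windows and test nothing. Of the 18 genes in the 20 pairs of highest r, 14 were in the table and 6 of these held CCAAT. Ptma, Ppia, Dut, Tuba1b, Mif, Ran, Ifitm1 and Ifitm3 held 0 matches. Matches are letters in a window and not sites shown to be bound.

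The lowest correlations of growth and cycle genes were with Rps27, Malat1 and Ifitm1. Ptma and the ribosomal protein gene Rps27 had the lowest r of the named pairs, -0.43 in mouse 2 LT-HSC, against -0.25 and -0.14 in ST-HSC. Stmn1 and Ifitm1 had -0.39, against -0.16 and -0.14, and Ptma and Malat1 had -0.39, against -0.24 and -0.16. When 3000 UMIs were drawn without ribosomal protein, mitochondrially encoded and Malat1 transcripts, the r of Stmn1 and Ifitm1 was -0.38 and that of Ptma and Ifitm1 -0.34. Relative counts sum to a fixed total, also in the draw of 3000 UMIs, and the part of this in the negative values was not tested.

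These values moved with the depth of the cell even after thinning. Over the 1155 thinned LT-HSC cells, the first principal component held 4.63% of the variance and, over the 1146 of mouse 2, correlated with the natural log of the total UMIs of the cell before thinning at r = 0.74. Stmn1, H2afz, Tuba1b and Ran stood at its high end and Ifitm1, Mllt3, Txnip, Meg3 and Hlf at its low end. Single genes followed the total as well over the mouse 2 cells, with an r of 0.50 for Ptma, -0.52 for Malat1, -0.44 for Ifitm1 and -0.30 for Meg3. Total UMIs reflect both the RNA content of a cell and its capture, which cannot be told apart here. In the 382 cells of middle depth, with 9531 to 11827 total UMIs, the r of Ptma and Ppia was 0.31. That of Ptma and Rps27 was -0.26, that of Ptma and Ifitm1 -0.09 and that of Hmgb2 and Top2a 0.05. Cells with 5 or more G2 and M phase genes had a median of 17399 UMIs, so most of them lie above this band. The parts of depth and of leaving out such cells were not tested apart.

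**Figure D4:**
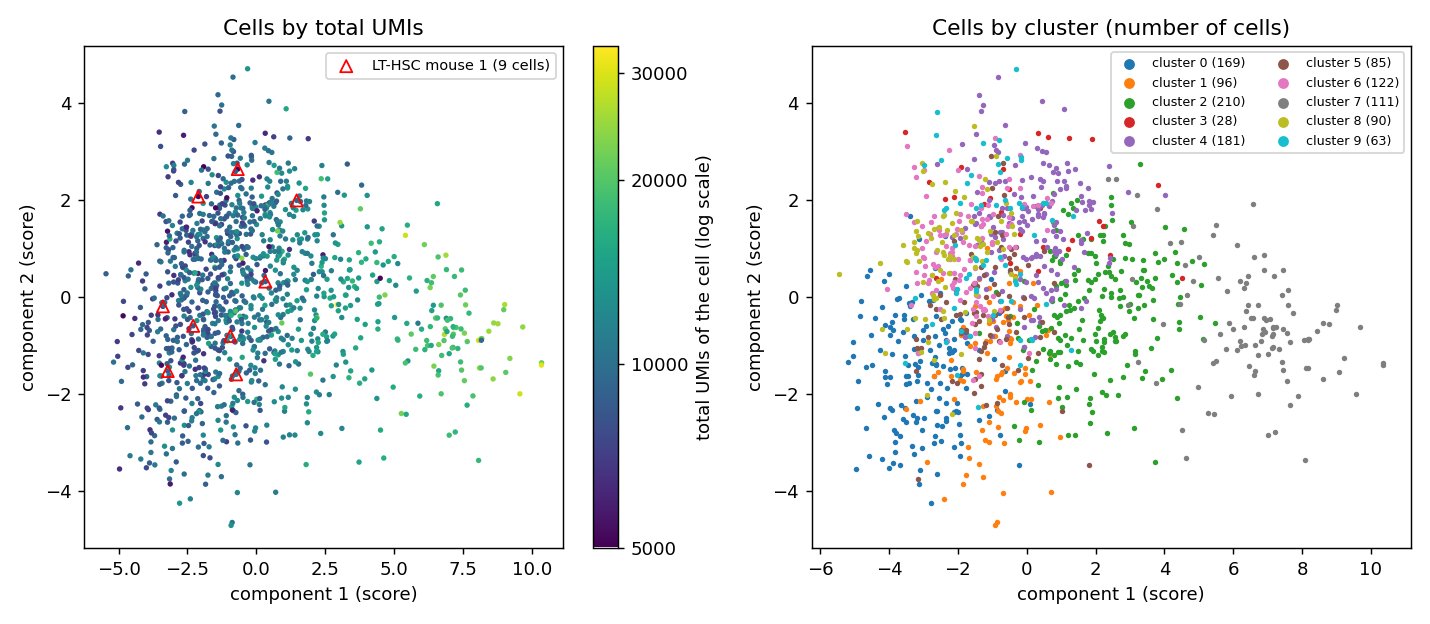
LT-HSC cells on the first and second principal components (scores) of thinned counts, coloured by total UMIs on a log scale (left, with the 9 cells of mouse 1 as triangles) and by cluster (right). Total UMIs rise along component 1, where cluster 7 stands at the high end with a median of 18425 UMIs.

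The MHC class II genes formed a block of their own. They encode the chains that present peptides to helper T cells, and hematopoietic stem cells are known to transcribe some of them. H2-Aa and Cd74 were correlated at r = 0.54 in mouse 2 LT-HSC, against 0.53 and 0.52 in ST-HSC. H2-Eb1 and Cd74 had 0.46, against 0.46 and 0.48, and H2-Ab1 and H2-Aa 0.41, against 0.42 and 0.32. They held in the cells of middle depth, where H2-Aa and Cd74 had 0.54 and H2-Eb1 and Cd74 0.51. Without the cells with 5 or more G2 and M phase genes they had 0.55 and 0.48.

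MHC class II transcripts were unevenly spread over cells. Cd74 lay at 95.4 and 189 CPM in mouse 1 and mouse 2 LT-HSC, against 157 and 160 CPM in ST-HSC. Its thinned counts were 0 in 66.3% of LT-HSC cells of mouse 2, where counting error at its mean would leave 37.6% at 0. A UMI of at least 3 of the 8 class II genes was found in 28.3% of the thinned LT-HSC cells of mouse 2, against 29.8% and 24.9% in ST-HSC, and unthinned in 48.2%, against 50.8% and 37.6%. The cells with 3 or more had a median of 10173 UMIs and the others 10697. Over cells, the summed class II list correlated with MHC class I at r = 0.24, with interferon response genes at 0.20 and with S phase genes at -0.05.

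The promoters of H2-Aa and H2-Eb1 are shown because class II promoters share the Y box, an inverted CCAAT. H2-Aa is at chr17:34287774-34288073 on the minus strand and H2-Eb1 at chr17:34305617-34305916 on the plus strand, from RefSeq in GRCm38.p6. Capitals mark CCAAT or ATTGG.
H2-Aa: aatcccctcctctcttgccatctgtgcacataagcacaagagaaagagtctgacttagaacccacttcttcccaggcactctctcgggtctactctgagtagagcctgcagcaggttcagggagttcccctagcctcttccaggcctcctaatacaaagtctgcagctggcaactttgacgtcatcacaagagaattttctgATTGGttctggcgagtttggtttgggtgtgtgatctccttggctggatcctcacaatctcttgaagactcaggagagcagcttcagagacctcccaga
H2-Eb1: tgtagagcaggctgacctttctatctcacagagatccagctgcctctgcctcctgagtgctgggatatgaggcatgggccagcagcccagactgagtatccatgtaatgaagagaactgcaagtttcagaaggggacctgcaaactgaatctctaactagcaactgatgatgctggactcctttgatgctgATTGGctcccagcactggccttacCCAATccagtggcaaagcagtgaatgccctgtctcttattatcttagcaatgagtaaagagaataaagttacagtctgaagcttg
The H2-Aa window held 1 match, in the inverted form, and the H2-Eb1 window held 2, which 11.7% of all promoters did or surpassed. H2-Aa also held TGACGTCA, the cyclic AMP response element, which was found in 1.79% of promoters.

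Among genes of the stem cell state, correlations were weaker than among cycle genes. Of 25 genes in a list of HSC-enriched genes, 17 could be compared, and their 136 pairs had a median r of 0.07, with 16 pairs at 0.2 or more. The highest was the neighbouring pair Ifitm1 and Ifitm3, at 0.43 in mouse 2 LT-HSC, against 0.27 and 0.28 in ST-HSC. Meg3 correlated most with Ifitm1 (0.33), Rps27 (0.27) and Pdzk1ip1 (0.27) in mouse 2 LT-HSC, and least with Cmtm7 (-0.26), Ptma (-0.25) and the histone variant gene H2afy (-0.23). In ST-HSC the r of Meg3 and Ifitm1 was 0.16 and 0.13. Meg3 had a thinned mean of 0.118 and 0.0899 UMIs there, against 0.829 in mouse 2 LT-HSC. Sparse counts weaken r, and the part of this was not tested. Hlf correlated most with Malat1 (0.27), Ifitm1 (0.22) and Rps27 (0.19) and least with Ptma (-0.23). Sult1a1 correlated at 0.20 with Slfn2, at 0.19 with Meg3 and at -0.20 with Ptma. Mecom had r from -0.16, with Ptma, to 0.15, with Malat1.

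Ifitm1 and Ifitm3 lie on chromosome 7 and are known to respond to interferon, so their promoters were searched for the interferon-stimulated response element, written as GAAA, then 2 bases of any kind, then GAAA, on either strand, which capitals mark. Ifitm1 is at chr7:140967826-140968125 on the plus strand and Ifitm3 at chr7:141010695-141010994 on the minus strand, from RefSeq in GRCm38.p6.
Ifitm1: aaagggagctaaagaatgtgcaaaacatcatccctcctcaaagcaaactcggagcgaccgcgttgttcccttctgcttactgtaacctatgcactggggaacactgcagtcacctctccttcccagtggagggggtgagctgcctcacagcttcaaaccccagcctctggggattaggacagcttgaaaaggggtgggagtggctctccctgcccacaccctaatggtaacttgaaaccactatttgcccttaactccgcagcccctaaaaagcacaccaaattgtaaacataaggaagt
Ifitm3: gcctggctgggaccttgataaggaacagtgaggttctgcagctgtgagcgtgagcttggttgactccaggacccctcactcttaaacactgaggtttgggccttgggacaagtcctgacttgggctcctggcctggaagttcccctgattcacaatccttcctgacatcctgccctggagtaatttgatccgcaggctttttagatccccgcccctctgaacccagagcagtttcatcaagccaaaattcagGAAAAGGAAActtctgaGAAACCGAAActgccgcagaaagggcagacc
Ifitm3 held 2 matches, both after the start, and Ifitm1 held 0, and at least 1 was found in 3.44% of all promoters. The absence says only that these letters are not in this window.

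Correlation was also summed up over whole gene lists. The median r among the 45 pairs of S phase genes was 0.25 in mouse 2 LT-HSC, against 0.22 and 0.21 in ST-HSC, and 33 pairs reached 0.2. G2 and M phase genes had a median of 0.23 (10 pairs), MHC class II genes 0.18 (15 pairs) and interferon response genes 0.11 (105 pairs), against 0.0006 over all pairs. Nuclear genes for oxidative phosphorylation had 0.02 over 3003 pairs, and megakaryocyte and platelet genes had -0.002 over 6 pairs. The multipotent progenitor list had 0.02 in mouse 2 LT-HSC, against 0.09 and 0.07 in ST-HSC, with 5 of its 15 genes measurable. Sparse counts weaken r, and the thinned sum of this list had a median of 2 UMIs per cell in LT-HSC, against 9 in each ST-HSC library. The part of this in the lower r was not tested.

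**Figure D5:**
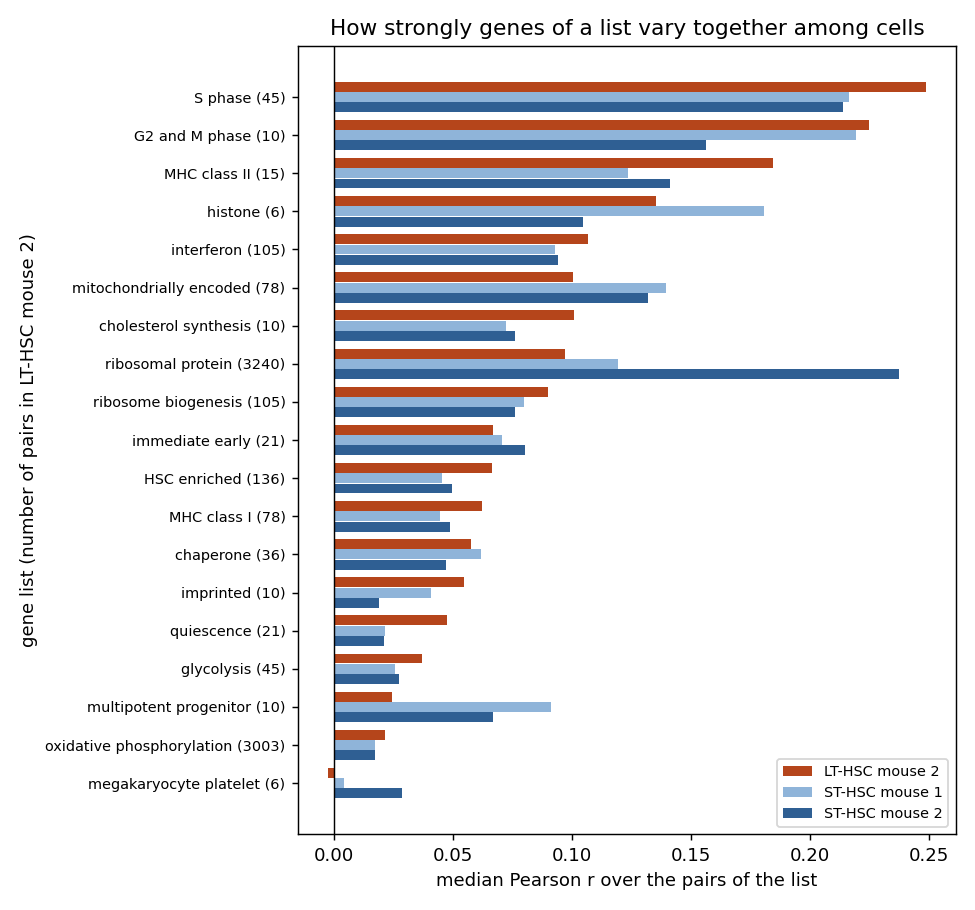
Median Pearson r over the gene pairs within each list, for mouse 2 LT-HSC, mouse 1 ST-HSC and mouse 2 ST-HSC; the number of pairs in mouse 2 LT-HSC is in parentheses. S phase genes have the highest median in LT-HSC, 0.25, and megakaryocyte and platelet genes the lowest, -0.002.

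Summed lists showed how the programs lay against each other within the gate. The HSC-enriched sum correlated with the S phase sum at r = -0.48 in mouse 2 LT-HSC, against -0.32 in each ST-HSC library, and with the G2 and M phase sum at -0.40, against -0.25 and -0.24. In the cells of middle depth these were -0.11 and -0.08, but most cells with 5 or more G2 and M phase genes lie above that depth. The sum of HSC-enriched genes itself correlated with total UMIs at -0.56. Raw UMIs were summed, so abundant members such as Ifitm1 weigh most, and the part of single genes in these r was not tested.

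Against progenitor genes the pattern differed. The list holds genes such as Cd34, Plac8, Flt3 and Cd48, which mark multipotent progenitors. Its thinned sum had a median of 2 UMIs per cell in mouse 2 LT-HSC, against 9 in each ST-HSC library, and was 0 in 11.3% of LT-HSC cells, against 0.390% and 0.440% of ST-HSC cells. Over cells it correlated with the HSC-enriched sum at r = -0.24 in mouse 2 LT-HSC, against -0.23 and -0.24 in ST-HSC. In the LT-HSC cells of middle depth the r was -0.33, and without the cells with 5 or more G2 and M phase genes it was -0.28. The HSC-enriched and interferon sums correlated at 0.29, against 0.21 and 0.23 in ST-HSC, and at 0.25 in the cells of middle depth. The HSC-enriched list itself holds the interferon-inducible genes Ifitm1 and Ifitm3, and their part in this r was not tested. The megakaryocyte and platelet sum had an r of 0.004 with the HSC-enriched sum, against 0.13 and 0.10 in ST-HSC.

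The named pair of highest r stood apart from these groups. Gm42418 and AY036118, annotated as long intergenic noncoding RNAs, were correlated at r = 0.58 in mouse 2 LT-HSC, against 0.24 and 0.56 in ST-HSC. They lie on opposite strands of the same stretch, Gm42418 at chr17:39846958-39848788 and AY036118 at chr17:39847113-39848035, within it. The sources used here do not say whether the counting used strand, and without it their reads cannot be told apart. Gm42418 had a Fano factor of 8.62 in mouse 2 LT-HSC, against 3.69 and 7.39 in ST-HSC.

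Clusters of the 1155 thinned LT-HSC cells, made with the Leiden method, give another description. There were 10, and they are numbered because they were made from the genes that describe them. Cluster 7 (111 cells, 9.61%) was led by Mki67, Pclaf, Spc24 and Top2a, had a median of 18425 UMIs and held 0 cells marked by Scrublet. Cluster 5 (85 cells) was led by Cd74, H2-Eb1, H2-Aa and guanylate-binding protein genes. Cluster 0 (169 cells) was led by Ramp2 and Meg3, with a mean of 49.4 HSC-enriched UMIs per cell, and cluster 4 (181 cells) by Plac8 and Serpinb1a, with 26.6. Cluster 1 (96 cells) was led by Vwf, the von Willebrand factor gene, and Nupr1, and cluster 9 (63 cells) by AY036118 and Gm42418. Cluster 2, with the most cells (210), was led by Ydjc, Nme1 and Fkbp11. Clusters 3 (28 cells), 6 (122 cells) and 8 (90 cells) were led by Gm13212 and Ubr4, by Mgst1 and Ms4a6b, and by Ldah and Mylip, which belong to none of the gene groups described above. The 9 cells of mouse 1 fell into clusters 0 to 5, with 3 in cluster 0, 2 in cluster 3 and 1 in each of clusters 1, 2, 4 and 5.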

How the data were processed

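LT-HSC and ST-HSC of 2 mice gave 1 droplet library (10x, 3' kit v3 per the labels) each. The authors deposited UMI counts without normalization, made with Cell Ranger 3.1.0 on mm10 per the submitters' processing notes, while the matrices carry software version 3.0.2 per the file headers. The counts cover 31053 genes, of which 30934 (99.6%) were found in GENCODE vM21. The sources used here do not give how barcodes were chosen for deposit. Groups and mouse numbers came from the labels. Cells of a library are not replicates, so no test was made over cells. Intervals are exact Poisson ones at 95%.

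Cells were thinned without replacement to 5000 UMIs. Fano factors covered genes with a mean of at least 0.2 UMIs and a UMI in at least 5% of cells, and correlations those in at least 10%, which gave the same 3688 genes. Clusters used scanpy 1.11.5. Doublets were marked with Scrublet and kept. Counts of kept cells were summed per library and tested with edgeR 4.0.16 (TMM, filterByExpr, quasi-likelihood, gate as the only factor) with Benjamini-Hochberg adjustment, and with DESeq2 1.42.0 as the alternative. The test and the spread were tested on simulated data. Mouse numbers pair libraries of the same animal, and the correlation of same-mouse deviations from the gate means was 0.04.

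Named genes were the 5 markers, the 20 genes of highest CPM outside the ribosomal protein and mitochondrially encoded classes, the 20 of highest Fano factor and 10 of highest excess variation, the 20 highest and 10 lowest pairs, the marker neighbours (3 each way) and up to 4 members of each of 35 lists. Genes named for 1 cell or 1 cluster were chosen after their values were seen. The members, markers and lists were chosen with earlier results of these data known. The alternatives without ribosomal protein genes, without G2 and M phase cells, in the 382 cells of middle depth and without a gene's highest cell were added after seeing the data. Promoter sequences are from RefSeq (GRCm38.p6). Settings tried are given in the closing section.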

Additional observations from a re-analysis of the deposited data

Results flagged for a closer look

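The 39531 barcodes of mouse 1 LT-HSC that failed the cell filter still carried UMIs of the 5 gate markers, of which Slamf1, Sult1a1 and Meg3 had higher values than in the failed barcodes of ST-HSC and Mecom and Hlf did not have higher values than in both. Slamf1 lay at 12.9 CPM there (173 of 13460097 UMIs), against 0 of 218851 UMIs in mouse 1 ST-HSC and 0 of 119189 in mouse 2 ST-HSC. Sult1a1 lay at 46.1 CPM (620 UMIs), against 0 UMIs in both ST-HSC libraries. Meg3 lay at 100.3 CPM (1350 UMIs), against 18.3 and 25.2 CPM. Mecom lay at 103 CPM, against 151 and 58.7 CPM in mouse 1 and mouse 2 ST-HSC, and Hlf at 250 CPM, against 690 and 378 CPM. For a count of 0 the exact 95% Poisson upper limit was 16.9 CPM in mouse 1 ST-HSC and 30.9 CPM in mouse 2 ST-HSC, so the difference was beyond counting error for Sult1a1 and not detectable at this depth for Slamf1. The 71 failed barcodes of mouse 2 LT-HSC held 89322 UMIs. Meg3 lay there at 246 CPM (22 UMIs, exact 95% Poisson interval 154 to 373), Mecom at 190 CPM and Hlf at 470 CPM. Slamf1 and Sult1a1 had 2 and 1 UMIs there, too few for a replicate check. Failed barcodes were 39531 of 39553 in mouse 1 LT-HSC, against 160 of 2793 and 77 of 1784 in mouse 1 and mouse 2 ST-HSC, so these sets are unlike. In the same failed barcodes of mouse 1 LT-HSC, the neutrophil gene Camp lay at 57.1 CPM and the globin gene Hbb-bs at 811 CPM, against 0 and 43.4 CPM in its kept cells. Their source was not tested.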

How the results depend on the processing

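The number of spread genes was 32 at 2000 UMIs and 240 at 8000, against 136. Pairs at an r of 0.2 or more were 7495 at 8000 UMIs, 817 without ribosomal protein, mitochondrially encoded genes and Malat1, 537 without G2 and M phase cells and 1048 in the 382 cells of middle depth, against 1955. Pairs at -0.2 or less were 584 by Spearman, 4189 at 8000 UMIs, 533 without the 2% of cells with most UMIs, 307 without those gene classes, 149 without G2 and M phase cells and 381 in those of middle depth, against 919. The settings without gene classes, without G2 and M phase cells and of middle depth were chosen after seeing the data. Clusters were 5 at resolution 0.5 and 22 at resolution 2, against 10. Over all settings, of the values for named pairs and genes, 100 of r moved and 162 did not, and 33 Fano factors moved and 134 did not. The r of Hmgb2 and Top2a was 0.05 in the cells of middle depth, which leave out most cells with 5 or more G2 and M phase genes. The 20 abundant genes took 7.02% of UMIs over all barcodes of mouse 1 LT-HSC and 6.71% over those of mouse 2 LT-HSC.

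The gate test called 455 genes higher and 396 lower in LT-HSC, and 26 and 23 by DESeq2. Leaving out 1 library gave 1 to 602 higher and 0 to 365 lower, and without mouse 2 LT-HSC it gave 1 and 0. With the replicate block of mouse number it gave 448 and 408, and of the 5 markers only Mecom changed its call. Mecom also had an edgeR adjusted p above 0.05 with no filter (0.0698), with all barcodes of mouse 1 LT-HSC (0.0902) and without any 1 library (0.103 to 0.636), and 1.00 by DESeq2. Hlf had 0.0336 with all barcodes of mouse 1 LT-HSC.

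The mouse 1 LT-HSC library had 9 cells of 5000 UMIs, so spread and correlation have no second animal. Genes under 0.2 UMIs per thinned cell, Slamf1 among them, could not be measured for either.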

Other observations

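Gene lists beyond those above also varied among the LT-HSC cells. After thinning to 5000 UMIs, 5 or more of 31 S phase genes had a UMI in 31.2% of mouse 2 LT-HSC cells, against 30.6% and 26.5% of ST-HSC cells, and unthinned in 63.6%, against 60.8% and 43.6%. Of 22 immediate early genes, which answer stimulation within minutes, 5 or more had a UMI in 38.0% of thinned mouse 2 LT-HSC cells, against 47.6% and 37.4% of ST-HSC cells, and unthinned in 75.3%, against 79.1% and 57.9%. Pairs of these genes had a median r of 0.07, against 0.07 and 0.08 in ST-HSC. Genes of cholesterol synthesis had a median r of 0.10 over 10 pairs, against 0.07 and 0.08 in ST-HSC. Ribosomal protein genes had a median r of 0.10 over 3240 pairs, against 0.12 and 0.24 in ST-HSC. Free RNA and depth can enter such shares, and their part was not tested.

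The second principal component held 1.40% of the variance in LT-HSC and had an r of -0.10 with total UMIs, unlike the first. Cmtm7, Cd34, Plac8 and the cell cycle kinase gene Cdk6 stood at one end, and Ifitm1, Meg3, Ifitm3 and Mllt3 at the other. The fourth held 0.820% and had Cd74, Ly6a, which encodes the Sca1 protein, H2-Aa and Iigp1 at one end.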
